A study of Mus musculus with 2 samples.

Results

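Genes of plasma proteins that the liver secretes were followed in newborn mouse pancreas carrying a mutant form of Glis3, the gene of a zinc finger transcription factor. The set held 49 genes, which cover carrier proteins, apolipoproteins, coagulation factors, complement, protease inhibitors, acute phase proteins, hepcidin and a urea cycle enzyme. A probe was taken for a gene when its RefSeq accession, or the current or older symbol in its description, mapped to that gene. This found 54 probes for 45 of the 49 genes, out of 41174 probes and 16793 named genes on the array. The mutant sample was pancreas of Glis3zf/zf mice, named Glis3KO in the labels, and the comparison sample was wild-type (WT) pancreas, both from postnatal day 3. Each genotype was a pool of RNA from 2 pups, so there was 1 sample per genotype, and the labels do not describe how the allele was built. Both pools were hybridised together on 2 Agilent whole mouse genome arrays, with the mutant in the red dye Cy5 on one and in the green dye Cy3 on the other. The arrays repeat the same pair of RNA pools, so their spread is technical, no test between genotypes was possible and no p-value was computed.

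The liver secretes most plasma proteins, and their genes are usually read in hepatocytes under the control of factors such as HNF4 and C/EBP. The pancreas arises next to the liver from the same embryonic gut endoderm and shares several of those factors. Some of these genes are also transcribed outside the liver: Gc is known as a transcript of islet alpha cells, and Apoe and C3 are made by macrophages in many tissues.

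Values are normalised spot signals on a linear scale in arbitrary units, which include a constant of 50 added before the logarithm, and ratios are log2 of mutant over WT, averaged over the 2 arrays. Signals of different genes come from different probes, so their order is not an order of RNA levels, and sums of signals over a list weight its brightest probes most. Rules of size replaced a test. The first asked for a 2-fold mean change and 1.5-fold or more, in one direction, on both arrays. The second asked for a mean of at least 0.3 log2, which is 1.231-fold, with the same sign on both arrays. Between the 2 arrays, the mean ratio of a gene had a technical SD of 0.08 log2, from 0.07 among the dimmest genes to 0.10 among the brightest. All 45 genes had a probe well above local background in at least 1 genotype on both arrays, none had a saturated spot, and 10 had a mean signal under 150. Of the 16793 named genes on the array, 16513 passed the same background rule, and 3191 of those had a mean signal under 150.

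The promoters of 5 of the genes are shown here for reference. Gc, Alb and Afp belong to 1 gene family on chromosome 5, and F2 and Vtn were the next most different genes. Each sequence holds the 250 bases before the gene's start, 5′ to 3′ on the gene's strand, from RefSeq on build GRCm38.p6. Capitals mark TATAAA (the TATA box) and TGGGGGGT (the core of the site bound by GLIS factors) on either strand, so that TTTATAAA in the Vtn promoter holds overlapping TATA boxes on both strands. The Gc promoter lies at chr5:89457899-89458148 on the minus strand, Alb at chr5:90460620-90460869 and Afp at chr5:90490464-90490713 on the plus strand, F2 at chr2:91636458-91636707 on the minus strand and Vtn at chr11:78498870-78499119 on the plus strand.
Gc: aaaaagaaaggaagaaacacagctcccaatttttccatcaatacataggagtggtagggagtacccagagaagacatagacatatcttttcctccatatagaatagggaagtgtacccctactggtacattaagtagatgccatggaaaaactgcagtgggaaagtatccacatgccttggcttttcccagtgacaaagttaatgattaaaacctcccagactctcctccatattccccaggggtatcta
Alb: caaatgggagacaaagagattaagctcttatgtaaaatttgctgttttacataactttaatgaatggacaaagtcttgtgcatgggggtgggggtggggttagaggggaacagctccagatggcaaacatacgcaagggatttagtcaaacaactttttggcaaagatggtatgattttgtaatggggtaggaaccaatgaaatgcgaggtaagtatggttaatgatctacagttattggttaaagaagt
Afp: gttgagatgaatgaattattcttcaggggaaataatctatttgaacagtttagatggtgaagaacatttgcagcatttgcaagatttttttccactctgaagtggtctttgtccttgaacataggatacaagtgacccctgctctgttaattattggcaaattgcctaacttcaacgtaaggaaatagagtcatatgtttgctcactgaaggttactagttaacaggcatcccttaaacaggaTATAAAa
F2: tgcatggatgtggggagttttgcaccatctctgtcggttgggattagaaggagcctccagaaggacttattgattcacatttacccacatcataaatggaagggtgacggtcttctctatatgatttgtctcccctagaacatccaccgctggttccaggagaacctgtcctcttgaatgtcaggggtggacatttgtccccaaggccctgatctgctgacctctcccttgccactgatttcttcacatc
Vtn: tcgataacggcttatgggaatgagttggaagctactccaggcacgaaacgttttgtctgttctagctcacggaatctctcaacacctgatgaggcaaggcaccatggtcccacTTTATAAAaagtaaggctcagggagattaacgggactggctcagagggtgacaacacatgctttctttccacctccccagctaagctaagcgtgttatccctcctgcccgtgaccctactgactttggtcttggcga
The TATA box was present in the promoters of Afp and Vtn, and neither motif was present in those of Gc, Alb and F2. Promoter sequences were matched for 36 of the genes. The TATA box occurred in 6 of these 36 promoters, against 3504 of all 27025 promoters of the same length. The GLIS core TGGGGGGT occurred in 2 of the 36, those of Apoa5 and Fga, against 1.32% of all promoters. A match describes letters in this window and is not a measured binding site.

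Most of the plasma protein genes differed little between mutant and WT pancreas, and a small group stood out. Gc, which encodes the vitamin D binding protein, was the only one of the 45 past the 2-fold rule, where 0.382% of the 16513 detected genes passed. By the 0.3 log2 rule 11 of the 45 genes differed in either direction, against 5.21% of all detected genes. Of these, 8 genes were higher in the mutant (17.8% of the 45): Gc, F2, Vtn, C3, Hp, Apoe, Cfb and Alb. Over all detected genes, 2.14% were higher by that rule. Ambp, F10 and Cp were lower, 3 of 45 (6.67%), against 3.07% of all detected genes. Both backgrounds depended on the processing. As reported 507 detected genes were lower, and between 395 and 966 under the alternatives, where 3 or 4 of the 45 were lower. On the higher side there were 353 detected genes as reported and between 265 and 583 under the alternatives, where 8 or 9 of the 45 were higher. The other 34 genes lay between -0.16 for Hamp and 0.22 for C4b, and 22 of the 45 lay within 0.1 log2 of 0. The lower and upper quartiles of the 45 were -0.04 and 0.15, against -0.07 and 0.07 over all detected genes. The 45 genes therefore did not lie closer to 0 than genes in general. The median ratio of the 45 was 0.03, against 0.00 over all detected genes. The 2 arrays put 21 genes (46.7%) above 0 together, against 32.5% of all detected genes. They put 9 of the 45 below 0 together, against 30.5% of all. They disagreed in sign for 15 of the 45, against 6112 of the 16513 detected genes.

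**Figure D1:**
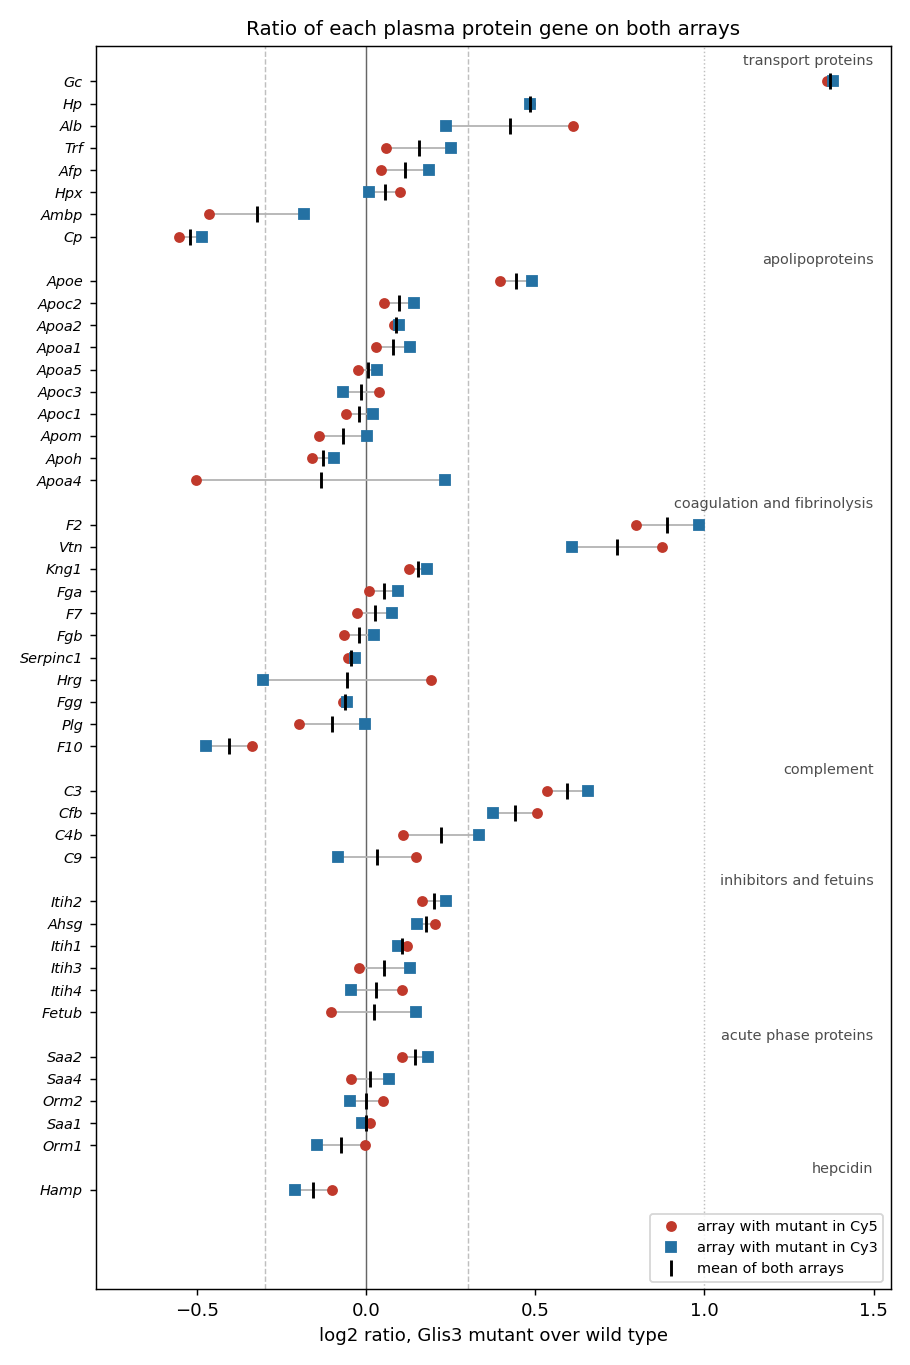
Log2 ratio of mutant over WT (horizontal axis) for each of the 45 plasma protein genes, grouped by role. Circles show the mutant labelled in Cy5, squares the mutant labelled in Cy3, black ticks the mean of both, and dashed and dotted lines stand at 0.3 log2 in either direction and at 2-fold higher. Gc lies alone beyond 2-fold at 1.37, and Apoa4 has the widest gap between arrays.

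The transport proteins held both the highest and the lowest ratio of the set. Of 8 genes, 3 were higher, 2 were lower and 3 passed neither side, with a median of 0.14. Gc had signals of 2704 and 2761 in the mutant, with Cy5 and then Cy3 as the mutant's dye (the order used throughout), against 1051 and 1061 in WT. The mutant signals exceeded both WT signals on both arrays, with ratios of 1.36 and 1.38 and a mean of 2.59-fold. Its probe, for NM_008096, lies in the files' coordinates at chromosome 5, 88734146 to 88734675, a span of 530 bases. No source used here gives the build of those coordinates.

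Alb, which encodes serum albumin, and Afp, its fetal counterpart alpha-fetoprotein, lie near Gc in the same family. Alb had signals of 208 and 226 in the mutant against 136 and 191.5 in WT. The genotypes did not overlap, yet the ratio was 0.61 on one array and 0.24 on the other, mean 0.42. Afp gave 102 and 114 in the mutant against 99.2 and 100.3 in WT, a mean ratio of 0.12, which passed no rule. Between Gc and Alb, among the detected genes, lie Npffr2, lower at -0.36, and Ankrd17 at 0.01, and on the other side of Gc lies Slc4a4 at 0.05. Beyond Afp lies Afm, which encodes afamin of the same family and was lower at -0.32.

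Hp encodes haptoglobin, which binds free haemoglobin. It had signals of 250.0 and 243 in the mutant against 179 and 173 in WT. The arrays gave the same ratio of 0.49, a mean of 1.40-fold. Hpx, which encodes the haem carrier hemopexin, had a ratio of 0.05, and Trf, which encodes the iron carrier transferrin, had 0.15, with overlapping signals for Hpx and separate ones for Trf.

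Cp encodes ceruloplasmin, a copper-carrying ferroxidase, and had the lowest ratio of the set. Its signals were 232 and 329 in the mutant against 341 and 461 in WT. Each mutant signal was below its own array's WT signal and the genotypes did not overlap, with ratios of -0.55 and -0.49 and a mean 1.43-fold lower. Ambp encodes the precursor of alpha-1-microglobulin and of bikunin, the light chain of the inter-alpha-trypsin inhibitors. Its signals were 7802 and 8182 in the mutant against 10773 and 9290.3 in WT. Both arrays were lower and the genotypes did not overlap, but the ratios of -0.47 and -0.18 were unequal, with a mean of -0.32 and a mean fold of 1.25 lower. Of the detected genes beside Ambp, Kif12 was lower at -0.61 and Zfp618, at -0.12, passed no rule.

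**Figure D2:**
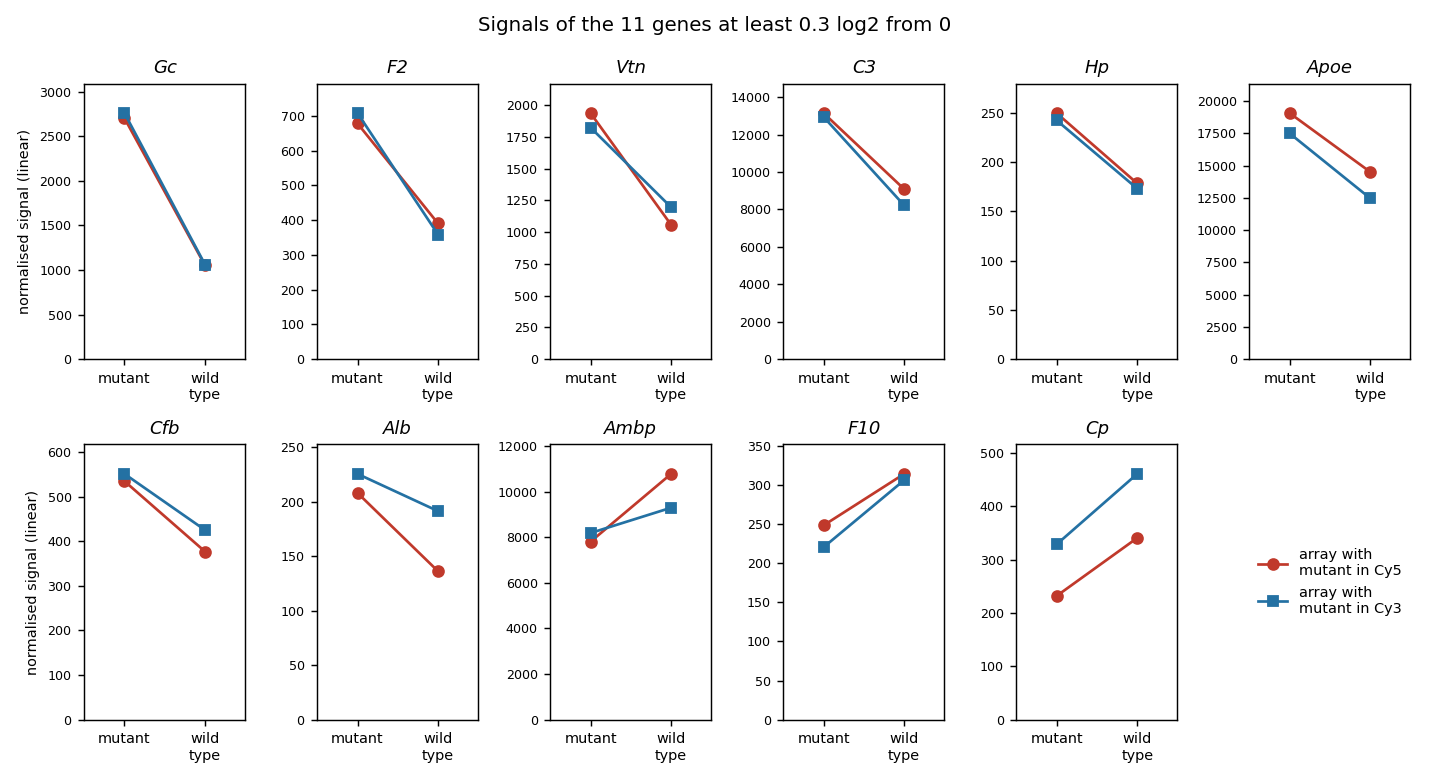
Normalised signals (vertical axis, linear, each from 0) of the 11 genes past the 0.3 log2 rule, mutant at left and WT at right in each panel. Circles show the mutant labelled in Cy5 and squares the mutant labelled in Cy3, each joined by a line within its array. Gc, F2, Vtn, C3, Hp, Apoe, Cfb and Alb slope down toward WT on both arrays, and Ambp, F10 and Cp slope up toward it.

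Of 10 apolipoprotein genes, 1 was higher and none lower, and the median was -0.01. Apoe encodes the ligand by which lipoprotein remnants bind the LDL receptor. It had signals of 19066.5 and 17494 in the mutant against 14508 and 12462 in WT. No mutant signal overlapped WT, and the mean was 1.36-fold. Its neighbour Apoc1, which encodes a small exchangeable apolipoprotein, was near 0 at -0.02, with overlapping genotypes. Apoa4 encodes an apolipoprotein of intestinal chylomicrons, and its ratio was -0.50 on one array and 0.23 on the other. Its second probe gave -0.13, as did the first on average, and the genotypes overlapped. Apoa1 (0.08), Apoa2 (0.09) and Apoc3 (-0.02), which encode main proteins of high density and triglyceride-rich lipoproteins, had signals under 150. Apoc2, which encodes the activator of lipoprotein lipase, gave 0.10, Apoa5 gave 0.00, Apom gave -0.07 and Apoh, which encodes beta-2-glycoprotein I, gave -0.13. None of these passed the 0.3 log2 rule.

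Of 11 coagulation and fibrinolysis genes, 2 were higher and 1 lower, with a median of -0.02. F2 encodes prothrombin, the precursor of thrombin. Its signals were 678 and 708 in the mutant against 390.3 and 358 in WT. The genotypes were separate on both arrays, with ratios of 0.80 and 0.98 and a mean of 1.85-fold, just short of the 2-fold rule. Its probe, for NM_010168, lies at chromosome 2, 91330178 to 91330237 in the files' coordinates.

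Vtn encodes vitronectin, an adhesion glycoprotein that stabilises the plasminogen activator inhibitor. It had signals of 1939 and 1825 in the mutant against 1058 and 1197 in WT. The lowest mutant signal was above the highest WT signal, and the mean was 1.67-fold. F10, which encodes coagulation factor X, had 248 and 220.3 in the mutant against 314 and 306 in WT. Both mutant signals were below both WT signals, a mean of 1.33-fold lower. F7, which encodes factor VII and is the detected gene beside F10, gave 0.02.

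The 3 fibrinogen chain genes stayed near 0, with Fga at 0.05, Fgb at -0.02 and Fgg at -0.06. Serpinc1, which encodes antithrombin, gave -0.04, and Plg, which encodes plasminogen, gave -0.10. Hrg, which encodes histidine-rich glycoprotein, had the second widest spread between arrays, with ratios of 0.19 and -0.31 and overlapping genotypes. Kng1, which encodes kininogen, gave 0.15 from a dim probe. Its second probe, which was not above the negative controls, gave -0.08.

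Of 4 complement genes, 2 were higher and none lower, with a median of 0.33. C3 encodes the central complement component. Its brightest probe had signals of 13142 and 12939 in the mutant against 9082 and 8214 in WT. The genotypes did not overlap, and the mean was 1.51-fold. A second, much dimmer C3 probe gave 142 and 246 in the mutant against 130.5 and 241.5 in WT, a ratio of 0.07, and C3 was the only gene whose probes disagreed by 0.3 log2 or more. Cfb, which encodes complement factor B of the alternative pathway, had 534.5 and 551 in the mutant against 377 and 425 in WT. The genotypes did not overlap, and the mean was 1.36-fold. C4b, which encodes complement component 4, gave 0.22, and C9, which encodes part of the membrane attack complex, gave 0.03.

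None of the inhibitor and fetuin, acute phase or hepcidin genes passed the 0.3 log2 rule. Among inhibitors and fetuins the 6 ratios ran from 0.02 for Fetub to 0.20 for Itih2, median 0.08. Itih1 (0.11), Itih2 and Itih3 (0.05) encode heavy chains joined to the bikunin of Ambp, and Itih4, which encodes a related protein, gave 0.03. Ahsg, which encodes fetuin A, gave 0.18 with separate signals. The 5 acute phase genes had a median of 0.00, with serum amyloid A genes Saa1 at -0.00, Saa2 at 0.14 and Saa4 at 0.01. The acid glycoprotein genes Orm1 (-0.07) and Orm2 (0.00) had signals under 150, and Orm1 was above background in the mutant on 1 of 2 arrays. Hamp, which encodes the iron hormone hepcidin, gave -0.16, with signals of 204 and 207 in the mutant against 219 and 239 in WT.

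Signals of mutant and WT did not overlap, with the mutant higher, for 17 of the 45 genes (37.8%), against 14.4% of all detected genes. With the mutant lower they did not overlap for 7 (15.6%), against 19.0% of all detected genes. For some genes the separate signals were close to each other, as for Serpinc1 at 197 and 201 in the mutant against 204 and 206 in WT.

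**Figure D3:**
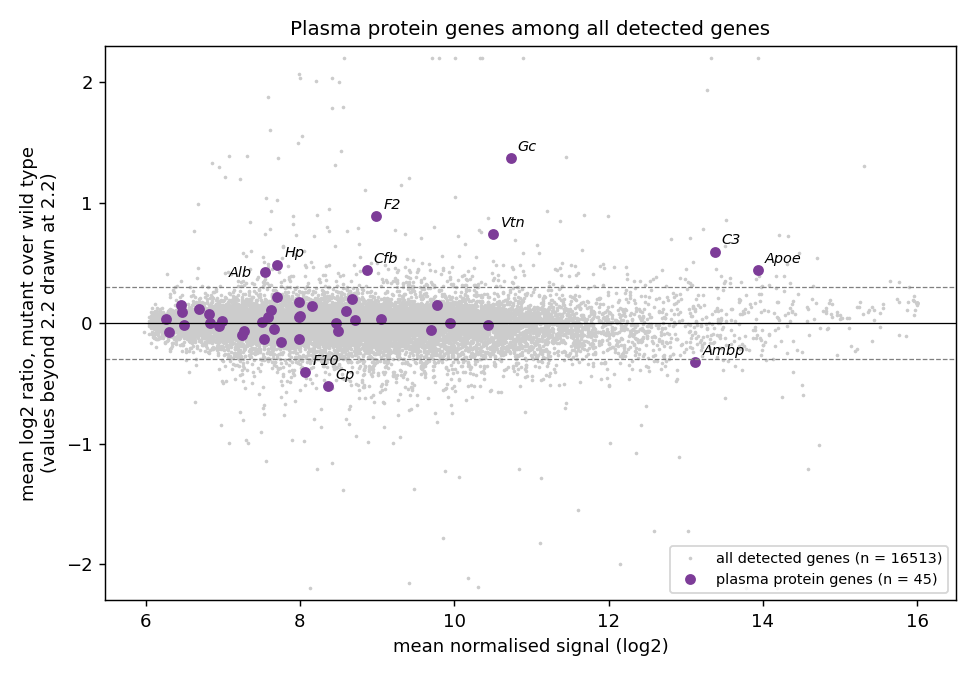
Mean log2 ratio of mutant over WT (vertical axis, values beyond 2.2 drawn at 2.2) against mean log2 signal for all 16513 detected genes in grey and the 45 plasma protein genes in purple, with dashed lines at 0.3 log2 in either direction. The spots of C3, Apoe and Ambp are bright, and those of Hp, Alb, F10 and Cp are dimmer, which describes probes and not RNA levels.

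The naming rule reached no probe of the remaining 4 genes, whose probes were read apart. Apob, which encodes the structural protein of low density lipoprotein, had 5 probes between -0.08 and 0.08. The 2 probes of F9, coagulation factor IX, gave -0.06 and 0.07, and the probe of Cps1, a urea cycle enzyme, gave 0.04. The alpha-1-antitrypsin gene Serpina1a shares its probes with Serpina1d (-0.12) and Serpina1e (0.00). Probes named for C4a (-0.02) and Saa3 (0.08) also list member accessions.

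Plasma proteins outside the 49 were described from lists of related genes. Of 20 other complement genes detected, 5 were higher in the mutant and none lower by the 0.3 log2 rule, with Cfi, which encodes the protease factor I, highest at 0.50, Mbl1 lowest at -0.19, and a median of 0.06. Of 16 other coagulation genes, Proc, which encodes protein C, was higher at 0.41 and F3, which encodes tissue factor, was lower at -0.33. Of 26 other liver plasma protein genes, Agt, which encodes angiotensinogen, gave 2688 and 2967 in the mutant against 558 and 670.5 in WT, a ratio of 2.21. The mutant signals of Agt lay far above both WT signals, and Agt passed the 2-fold rule. Rbp4, which encodes the retinol carrier, had 1821 and 1811.5 in the mutant against 5568 and 5096 in WT, a ratio of -1.55. Both mutant signals of Rbp4 lay below both WT signals, past the 2-fold rule.

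Markers of liver cells and of other cells in the tissue were measured beside these genes, and their part in the results was not tested. The 26 detected hepatocyte markers had a median of 0.04, with 1 higher (Mat1a, 0.39) and 1 lower (Arg1, -0.31). Their summed signals were 12989 and 14233 in the mutant and 12431 and 14173 in WT, and 6 were dim, among them Agxt, Bhmt and Cyp8b1. Of 8 alpha cell markers, Gcg, which encodes glucagon, gave 16802 and 15508 in the mutant against 37579 and 36999 in WT, a ratio of -1.21. Both mutant signals of Gcg lay below both WT signals, past the 2-fold rule. The summed alpha cell signals were 18991 and 17522 in the mutant and 40023 and 39437 in WT, and without Gcg they were 2190.0 and 2014 in the mutant and 2444 and 2437 in WT. The median ratio of the 8 was -0.09, which became -0.17 to -0.20 under 4 of the alternative settings, and none was higher by the 0.3 log2 rule. Of 10 macrophage markers, 3 were higher and none lower, led by Lyz2 at 0.86 with Mrc1 lowest at -0.13, and the median was 0.09. Their summed signals were 23813 and 21742 in the mutant against 15105 and 14535 in WT, and without Lyz2 they were 7076 and 6776 in the mutant against 6305 and 5888 in WT. Apoe and C3 are also made by macrophages. Cd163, a macrophage receptor counted in the list of receptors and not among these 10, was lower at -0.42. Of 9 endothelial markers 5 were lower and none higher, between -0.55 for Flt1 and -0.06 for Tie1, with summed signals of 5667 and 5818 in the mutant against 7446 and 7277 in WT. The 7 detected enterocyte markers had a median of 0.08, between -0.18 for Vil1 and 0.39 for Apobec1. Skeletal muscle markers, like the other lists, were chosen with earlier results of these data known. All 11 detected muscle markers were higher by the 0.3 log2 rule, with a median of 3.19. They ran from Pygm at 0.31 to Myl1 at 4.46, and 8 passed the 2-fold rule. In bulk samples, fewer cells of a type and less RNA per cell cannot be told apart. Of 13 detected acinar markers, which define the pancreas, 6 were saturated throughout in both pools. The others were less bright, with signals down to 573, and their ratios ran from -1.11 for Ctrl to 1.93 for Gp2. Glis3 itself read -0.003 from a dim probe, and no source used here says whether that probe lies within the altered part.

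**Figure D4:**
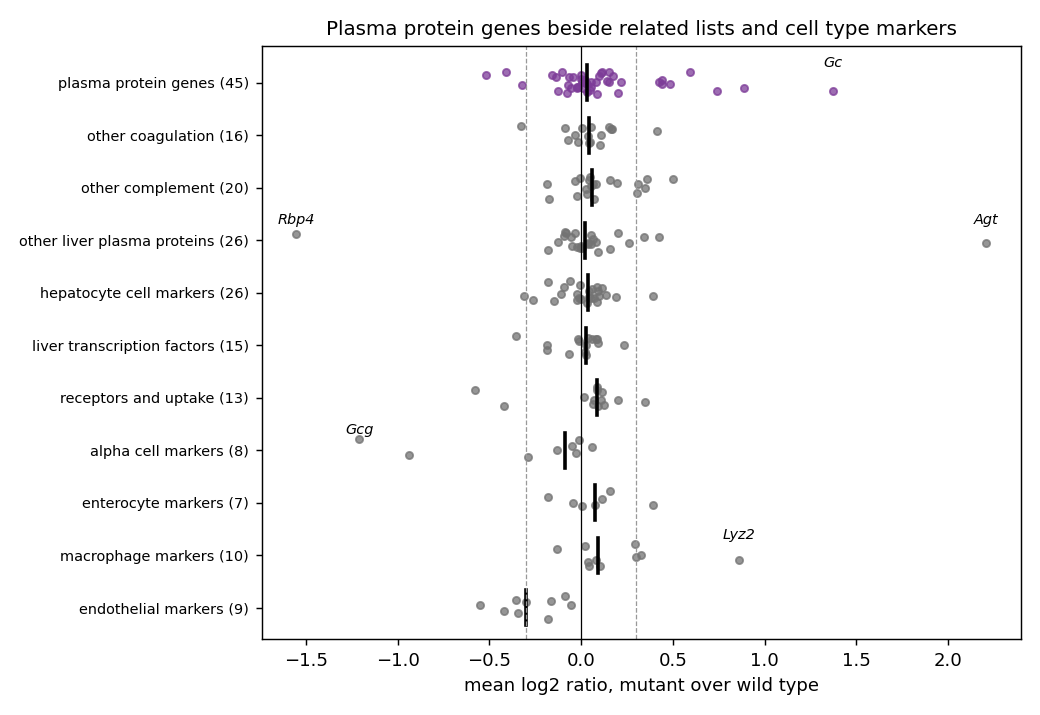
Mean log2 ratio of mutant over WT (horizontal axis) for the 45 plasma protein genes in purple and for the detected genes of 10 other lists in grey (acinar and skeletal muscle markers are not drawn), with the number in brackets, black ticks at medians and dashed lines at 0.3 log2 in either direction. Among the genes drawn, Agt lies highest at 2.21 and Rbp4 lowest at -1.55, both outside the 45 genes.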

How the data were processed

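Two-colour arrays of 1 mutant and 1 WT pool, with dyes exchanged, were analysed. Per the file headers, the scanner output deposited by the authors gives mean spot intensity and median local background intensity per channel, not normalised, and a log10 ratio (Cy5 over Cy3) that the scanner software computed from background-subtracted, dye-normalised signals. The deposited series table holds log2 ratios, which equalled the software's ratio of mutant over WT within 0.002 log2 for 99.95% and 99.85% of probes. Feature Extraction version 7.5 is named per the labels, and module version 8.5.1.1 per the file headers.

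From the intensities, limma 3.58.1 in R 4.3.3 corrected background by normexp (offset 50), which shrinks dim ratios. It normalised by loess within arrays (control spots at weight 0) and Aquantile between them. Flagged spots (15 and 53 gene spots) were left out. A gene's value is that of its brightest probe without saturation. Detected genes (16513) were well above background in at least 1 genotype on both arrays. Tables were made with Python 3.11.15, pandas 2.3.3, numpy 2.4.6 and matplotlib 3.10.9, and the code was tested on simulated data.

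With 1 sample per genotype no test was made, and signals are given for members past the 0.3 log2 rule, those with the highest signal or disagreeing probes, and some others. Of other lists, genes past 2-fold (counted for muscle) and most of the highest and lowest are named, and some results are not reported here; Hnf4a, Cd163 and the lists' dim markers were named after their values were seen. The members and lists were chosen with earlier results of these data known. The number of arrays limits the precision.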

Additional observations from a re-analysis of the deposited data

How the results depend on the processing

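In all, 12 alternatives to the processing were run, 2 of them (a raw signal above negative controls, and counting probes read apart) chosen after seeing the data. Over 539 recomputed ratios of the 45 plasma protein genes, none of the 11 genes past the 0.3 log2 rule changed sign. That rule already asks for the same sign on both arrays, so the single-array settings could not reverse them. Settings that changed only the detection filter left the ratios of these 11 as they were. Of the 539 ratios, 54 moved by more than the technical SD. The uncalled Apoa4 and Hrg, among others, changed sign between single arrays. The 8 higher and 3 lower genes all remained except with the mutant in Cy3 alone, where Alb and Ambp dropped out and C4b and Hrg passed. Kng1, read from a dim probe, joined the higher genes, at up to 0.43, with offset 0, the software's ratio and the series table. Apoa4 joined the lower ones with the mutant in Cy5 alone. C3 was 0.33 with the median over probes. The number of plasma protein genes past 2-fold was 2 (Gc and F2) with the scanner software's ratio and with the deposited series table. The alpha cell median was -0.17 with normexp offset 0, -0.20 with both the software's ratio and the series table, and -0.18 with the mutant in Cy3 alone. The skeletal muscle median was 3.38 with offset 0, 3.39 with the software's ratio and the series table, 2.31 with the median over probes and 3.08 with the mutant in Cy3 alone, and the endothelial median was -0.18 with the median over probes. The cause was not tested. Over all detected genes, 353 were higher and 507 lower as reported, 526 and 779 with offset 0, 265 and 789 with median centring, 577 and 858 with the software's ratio, 583 and 861 with the series table, and 519 and 966 with the mutant in Cy5 alone. No paired analysis was possible because each genotype has 1 sample. The ratios have no check across animals, and dim genes have folds shrunk by the offset.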

Other observations

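Of 15 transcription factors that drive these genes in liver, Foxa2, a forkhead factor of endoderm, was lower at -0.36, with signals of 1212 and 1214 in the mutant against 1470.4 and 1641 in WT, and the other 14 passed neither side of the 0.3 log2 rule. Hnf4a, a nuclear receptor of hepatocytes, gave 0.18 and -0.01 on the 2 arrays, with a mean of 0.08. Cebpd had the highest mean at 0.23, from unequal ratios of 0.03 and 0.43. The list's median was 0.03.

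Receptors and uptake proteins of plasma proteins had a median of 0.09 over 13 detected genes. Fcgrt, which encodes the receptor that recycles albumin and IgG, was higher at 0.35. Tfrc, which encodes the transferrin receptor, was lower at -0.58, and Cd163, which encodes the haptoglobin-haemoglobin receptor, was lower at -0.42. Of their ligands, Trf gave 0.15, which passed no rule, and Hp was higher at 0.49.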
